A study of Homo sapiens with 6 samples.

Results

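Expression of 10 genes of the cytotoxic programme of lymphocytes was followed in Jurkat, a cell line from a human T cell leukaemia, with SATB1 knocked down. They were the granzyme genes GZMA, GZMB, GZMH, GZMK and GZMM, the pore-forming protein gene PRF1, the granule protein genes NKG7 and GNLY, and the T-box transcription factor genes EOMES and TBX21. These 10 members were taken by symbol in GENCODE 29 from 58735 gene identifiers, and 8 of them passed the filter on low counts, among 17520 genes tested. The shCtrl group (3 libraries) received a control short hairpin RNA and is labelled control, and the shSATB1 group (3 libraries) received a hairpin against SATB1 and is labelled SATB1 knockdown. Both groups share the hairpin treatment, the culture in RPMI medium with serum and the leukaemic background of the line. How the hairpins were delivered and for how long is not given in the sources used here. The labels do not say whether the 3 replicates of a group came from separate cultures, so that the spread, and every p-value built on it, may be technical only. SATB1 encodes a chromatin organiser of T cells, and the comparison asks which transcripts differ when it is reduced.

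Cytotoxic T cells and natural killer (NK) cells store perforin and granzymes in lysosome-like granules and release them toward a target cell. Perforin opens a pore in the target membrane, and granzymes, which are serine proteases, enter through it and cleave proteins that bring about death of the target. Granzyme A cuts after basic residues and granzyme B after aspartate. NKG7 sits in the granule membrane and takes part in granule release, and granulysin (GNLY) is a membrane-disrupting peptide. EOMES and T-bet (TBX21) are related T-box factors that drive PRF1 and granzyme genes in CD8 T cells and NK cells. RUNX and ETS factors are further known regulators of this programme.

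Promoter sequence was matched for 8 of the 10 members (GZMK and GZMM were the others) in a RefSeq table of build GRCh38.p14. Stretches upstream of the gene start are shown for 3 members that rose, GZMA, PRF1 and NKG7, and, for contrast, for GZMB, the textbook granzyme of killer cells, which stayed close to 0 here. Each runs 5′ to 3′ on the strand of its gene and stops before the transcribed part of the gene in either annotation. Capitals mark 3 short motifs on either strand, the T-box half-site GTGTGA, the RUNX core TGTGGT and the ETS core AGGAAG. The GZMA stretch is chr5:55102396-55102645 (plus strand), the PRF1 stretch chr10:70602776-70602991 (minus strand), the NKG7 stretch chr19:51372716-51372904 (minus strand) and the GZMB stretch chr14:24634268-24634440 (minus strand).
GZMA: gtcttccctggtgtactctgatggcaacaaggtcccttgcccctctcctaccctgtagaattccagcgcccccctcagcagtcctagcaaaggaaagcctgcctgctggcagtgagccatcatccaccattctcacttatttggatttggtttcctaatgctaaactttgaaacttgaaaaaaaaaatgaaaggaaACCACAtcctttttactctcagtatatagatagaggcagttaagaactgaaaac
PRF1: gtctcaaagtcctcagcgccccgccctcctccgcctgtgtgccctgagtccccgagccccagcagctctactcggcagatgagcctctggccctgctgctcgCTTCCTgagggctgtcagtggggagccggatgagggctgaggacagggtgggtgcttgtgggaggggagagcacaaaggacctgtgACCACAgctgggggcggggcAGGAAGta
NKG7: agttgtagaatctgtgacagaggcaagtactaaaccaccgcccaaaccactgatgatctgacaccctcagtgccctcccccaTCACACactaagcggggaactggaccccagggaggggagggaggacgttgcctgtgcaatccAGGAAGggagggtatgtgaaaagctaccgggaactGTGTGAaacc
GZMB: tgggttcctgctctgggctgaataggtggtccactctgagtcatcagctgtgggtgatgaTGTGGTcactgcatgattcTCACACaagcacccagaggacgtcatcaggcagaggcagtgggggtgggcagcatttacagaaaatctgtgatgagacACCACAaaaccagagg
Within 250 bases upstream of the RefSeq start, GZMA had 1 RUNX core, which begins 54 bases before the start, and neither of the other motifs. PRF1 had 1 RUNX core, 62 bases before its start, and 2 ETS cores, at 148 and 42 bases. NKG7 had 2 T-box half-sites, at 168 and 71 bases, and 1 ETS core. GZMB, in contrast, held 2 RUNX cores and 1 T-box half-site, so that these letters were not limited to members that rose. GNLY, also close to 0 in these libraries, held 1 T-box half-site and 1 RUNX core. EOMES had 3 ETS cores, and none of the 3 motifs was found upstream of TBX21 or of GZMH. Of 34943 promoter windows of the same length, 9.89% held the T-box half-site, 11% the RUNX core and 28.7% the ETS core. A match of this kind describes the letters of the window and does not show a bound site.

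Libraries held between 26626539 and 28913623 reads in genes. SATB1 stood between 258.5 and 279.1 CPM (counts scaled to a common library size) in shCtrl and between 100.2 and 104.1 CPM in shSATB1, a fitted log2 fold change of -1.38 (edgeR, adjusted p = 1.11e-08). Reads outside annotated exons made up 7.77% to 10.2% of reads in shCtrl and 10.9% to 11.7% in shSATB1. This share did not overlap between the groups and was entered as a covariate in an alternative fit. Since the share goes with the group, that fit cannot tell the 2 apart, and it is less precise. For NKG7, for example, the standard error of the log2 fold change was 0.105 in the main fit and 0.188 with the covariate. A call lost with the covariate is therefore reported without a reading of its cause. The 12 T cell markers checked for the line, among them CD3E and LCK, were all tested and summed to 3601.3 to 4049.2 CPM in shCtrl and 3557.4 to 3773.0 CPM in shSATB1. Of these, 5 fell (TRBC1, CD2, CD5, CD3D and CD247, by 1.18-fold to 1.31-fold) and 2 rose (TAL1 and TRAC), and the part of this shift in the results below was not tested. The 9 markers of NK cells summed to only 1.67 to 1.96 CPM and 1.86 to 2.83 CPM in the same groups, and of the defining NK receptors NCR1 had 1 read over all 6 libraries. Myeloid markers (6 genes) summed to at most 1.13 CPM in any library.

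Perforin, granzyme A, granzyme M, NKG7 and EOMES transcripts were higher in the SATB1 knockdown libraries, while GZMB, GZMH, GZMK and GNLY stayed below 1 CPM in every library. Of the 10 members, 5 rose in shSATB1 (GZMA, PRF1, EOMES, GZMM and NKG7), 3 were tested and not called (TBX21, GZMH and GZMB) and 2 were not tested (GZMK and GNLY). Over all genes tested, 14.3% rose at an adjusted p under 0.05 (edgeR quasi-likelihood test with Benjamini-Hochberg adjustment, used for every adjusted p below). A rise of at least 2-fold at an adjusted p under 0.05 was found for GZMA and PRF1, against 1.71% of all genes tested. The members were chosen with earlier results of these data known, so these counts are a description. None of the 8 tested members fell, and in 0 of them did every shSATB1 library lie below every shCtrl library, against 16.6% and 23.4% of all genes tested (falls numbered 0 by edgeR, 0 by DESeq2, 0 by limma-voom and 0 at an unadjusted p under 0.05 by edgeR). In 6 of the 8 tested members (the 5 called and GZMH) every shSATB1 library lay above every shCtrl library, a separation seen in 21.7% of all genes tested. The same 5 members kept their calls in each of 15 alternative fits, which include the fit with the share of reads outside exons and the fits that leave out each library. In bulk RNA a change in the share of cells that express a gene and a change in its RNA per cell cannot be told apart.

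**Figure D1:**
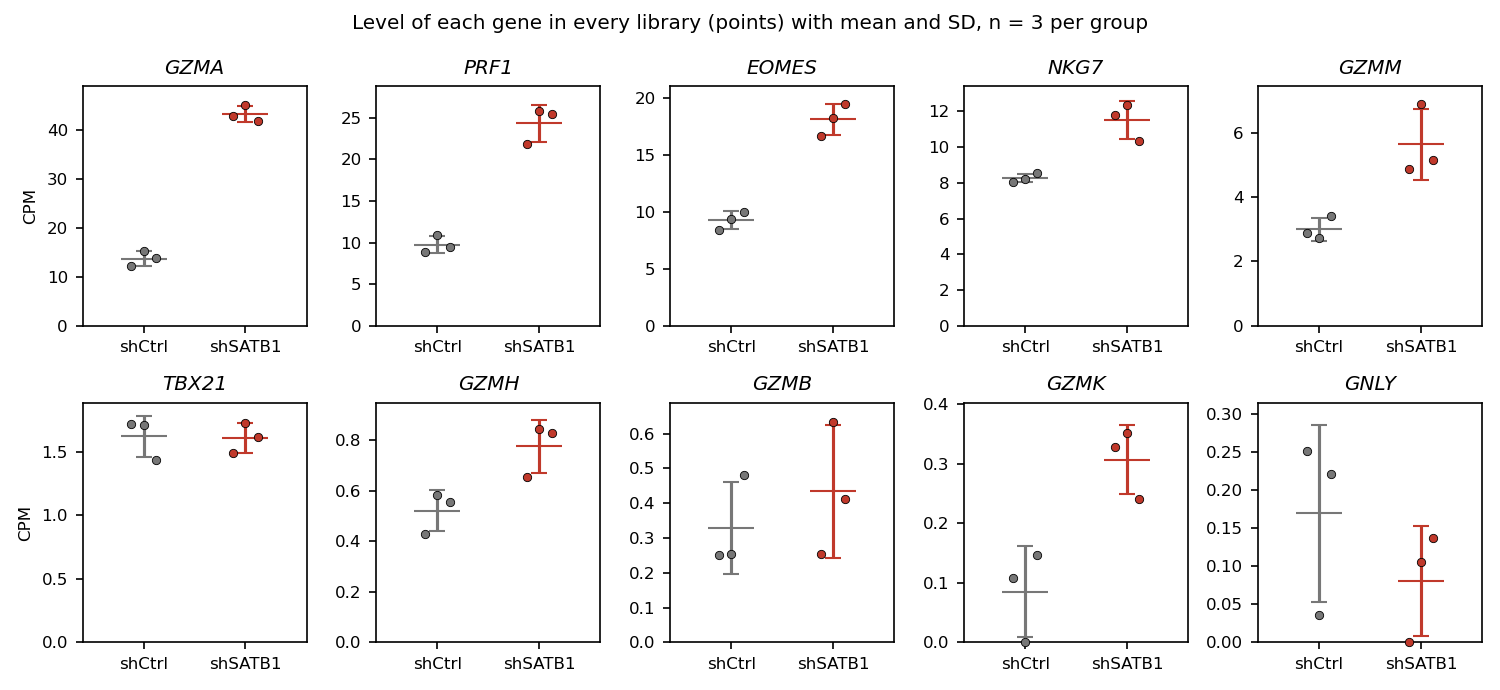
CPM of each of the 10 members (vertical axes, linear and starting at 0, each gene on its own scale) in the 3 shCtrl and 3 shSATB1 libraries; points are libraries and bars give mean and SD. GZMA stands at 12.2 to 15.3 CPM in shCtrl and 41.9 to 45.1 CPM in shSATB1, whereas TBX21 overlaps between the groups.

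Among the granzymes, GZMA carried most of the signal. GZMA (ENSG00000145649, chromosome 5, 55102648 to 55110252, plus strand, hg38) encodes the tryptase granzyme A. It was counted at 12.2, 15.3 and 13.8 CPM in shCtrl 1, 2 and 3, against 42.9, 45.1 and 41.9 CPM in shSATB1 1, 2 and 3, from 340 to 1279 reads per library. All 3 knockdown libraries thus lay far above the controls, with less spread between them than the distance to the nearest control. The fitted rise was 3.15-fold (95% interval 2.76 to 3.59, adjusted p = 7.74e-08), the largest among the members and rank 59 by rise among the 17520 genes tested.

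GZMM (ENSG00000197540, chromosome 19, 544034 to 549924, plus strand) encodes granzyme M, a protease known from NK cells that cuts after methionine or leucine. It was at 2.87, 2.73 and 3.40 CPM in shCtrl 1, 2 and 3 and at 4.88, 6.88 and 5.14 CPM in shSATB1 1, 2 and 3. The groups did not overlap, and shSATB1 2 stood above the other knockdown libraries. The fitted rise was 1.88-fold (95% interval 1.46 to 2.42, adjusted p = 0.00131). Its adjusted p was highest, 0.0119, with the share of reads outside exons as covariate.

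The granzymes of activated killer cells were nearly absent. GZMB (ENSG00000100453, chromosome 14, 24630954 to 24634267, minus strand), the aspartate-specific protease, had 7, 7 and 13 reads in shCtrl and 7, 18 and 12 reads in shSATB1. The ranges overlapped, and the log2 fold change of 0.41 had a 95% interval from -0.57 to 1.38 (adjusted p = 0.539), wide enough to hold a doubling. GZMH (ENSG00000100450, chromosome 14, 24606480 to 24609699, minus strand), its close relative 21255 bases away, had 12, 16 and 15 reads in shCtrl and 18, 24 and 24 reads in shSATB1. Every knockdown library was above every control in GZMH, at 0.655 to 0.847 CPM against 0.431 to 0.582 CPM, but the difference was not called (log2 fold change 0.57, 95% interval -0.11 to 1.25, adjusted p = 0.192).

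GZMK (ENSG00000113088, chromosome 5, 55024253 to 55034570, plus strand), another tryptase gene 68078 bases from GZMA, had 3, 0 and 4 reads in shCtrl and 9, 10 and 7 reads in shSATB1. It was below the count minimum and entered no test in the main fit. The 0 in shCtrl 2 allows up to 3 reads, 0.104 CPM of the unadjusted library size. Without the filter its log2 fold change was 1.79 (SE 0.739, adjusted p = 0.0858). Of its exon bases, 47.7% are shared with the antisense gene AC034238.1, which had 2 to 9 reads per library, and without a stated strand setting these reads cannot be assigned with certainty.

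The mixture of granzyme transcripts shifted toward GZMA. Of all reads in the 5 granzyme genes, GZMA held 77.7% ± 3.06 (SD, n = 3) in shCtrl and 85.9% ± 1.90 in shSATB1. GZMM held 17.02% ± 2.21 and 11.1% ± 1.48. Neither share overlapped between the groups (two-sided exact permutation test, p = 0.1, which is the lowest value this design allows). GZMM therefore rose in CPM and took a smaller part of the granzyme reads at the same time.

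PRF1 (ENSG00000180644, chromosome 10, 70597348 to 70602775, minus strand) encodes perforin, without which granzymes do not reach the cytosol of a target. Its level was 8.90, 10.9 and 9.49 CPM in shCtrl 1, 2 and 3 and 21.8, 25.8 and 25.4 CPM in shSATB1 1, 2 and 3, from 248 to 736 reads. The lowest knockdown library was above the highest control by more than the spread within either group. The fitted rise was 2.49-fold (95% interval 2.14 to 2.90, adjusted p = 1.57e-06).

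NKG7 (ENSG00000105374, chromosome 19, 51371606 to 51372715, minus strand) changed least among the members that rose. It was at 8.07, 8.22 and 8.53 CPM in shCtrl 1, 2 and 3 and at 11.8, 12.4 and 10.3 CPM in shSATB1 1, 2 and 3. The groups did not overlap, with shSATB1 3 nearest to the controls. The fitted rise was 1.39-fold (95% interval 1.19 to 1.62, adjusted p = 0.00375), and with the share of reads outside exons as covariate the adjusted p was 0.0474, just inside the threshold of 0.05. GNLY (ENSG00000115523, chromosome 2, 85685175 to 85698854, plus strand), the granulysin gene, had 7, 1 and 6 reads in shCtrl and 0, 3 and 4 reads in shSATB1 and entered no test in the main fit. The 0 in shSATB1 1 allows up to 3 reads, 0.113 CPM of the unadjusted library size. Without the filter the log2 fold change of GNLY was -1.02 (SE 0.897, adjusted p = 0.547).

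The T-box factors behaved differently from each other. EOMES (ENSG00000163508, chromosome 3, 27715949 to 27722711, minus strand) was at 8.4, 9.35 and 9.97 CPM in shCtrl 1, 2 and 3 and at 16.7, 18.2 and 19.4 CPM in shSATB1 1, 2 and 3. Its knockdown libraries were all well above its controls, with a fitted rise of 1.96-fold (95% interval 1.69 to 2.27, adjusted p = 1.61e-05). TBX21 (ENSG00000073861, chromosome 17, 47733244 to 47746119, plus strand) was at 1.72, 1.71 and 1.44 CPM in shCtrl, against 1.49, 1.73 and 1.62 CPM in shSATB1. Its groups overlapped over most of their range. The log2 fold change of -0.01 (95% interval -0.46 to 0.44, adjusted p = 0.980) leaves room for changes smaller than that interval, and its sign turned between settings. EOMES made up 85.0% ± 2.23 (SD, n = 3) of the reads of the pair in shCtrl and 91.8% ± 0.492 in shSATB1, and this share did not overlap between the groups (two-sided exact permutation test, p = 0.1, the smallest possible).

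**Figure D2:**
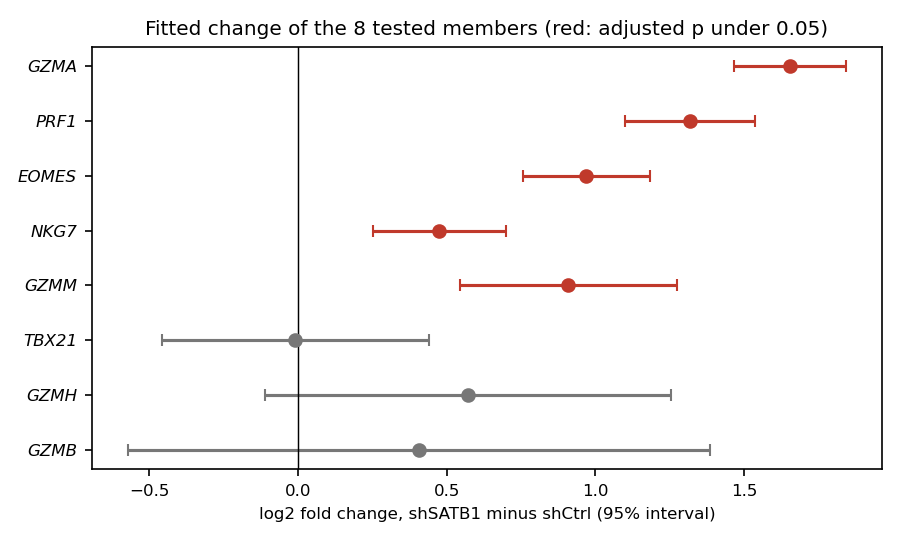
Fitted log2 fold change of shSATB1 minus shCtrl (horizontal axis) for the 8 members tested, with 95% intervals from the edgeR fit; red marks an adjusted p under 0.05. The intervals of GZMA, PRF1, EOMES, GZMM and NKG7 lie above 0, and those of TBX21, GZMH and GZMB include it.

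Scaled to exon length (reads per kilobase of exon in CPM units, RPKM), which allows levels of different genes to be compared, GZMA was highest in shCtrl at 15.4 ± 1.72 RPKM (SD, n = 3). NKG7 followed at 8.85 ± 0.250, PRF1 at 3.85 ± 0.400, GZMM at 3.17 ± 0.373 and EOMES at 2.53 ± 0.217 RPKM. PRF1 and GZMM overlapped in their ranges, and the other neighbours in this upper part of the order did not. TBX21 (0.621 ± 0.0609 RPKM) and GZMH (0.549 ± 0.0847) overlapped in shCtrl, and GZMB, GNLY and GZMK lay below them. In shSATB1 the upper 5 kept their order, from 48.4 ± 1.85 RPKM for GZMA and 12.3 ± 1.12 for NKG7 to 9.59 ± 0.872 for PRF1, 5.96 ± 1.15 for GZMM and 4.95 ± 0.375 for EOMES. GZMM and EOMES overlapped there, and GZMH (0.817 ± 0.111 RPKM) now lay above TBX21 (0.617 ± 0.0452) in every library.

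The 5 members that rose were compared with each other through the log2 ratio of their CPM values within a library, for all 10 pairs. In 8 pairs the ratio did not overlap between the groups, and in 2 it did. GZMA over PRF1 was 0.50 ± 0.0433 (SD, n = 3) in shCtrl and 0.84 ± 0.131 in shSATB1. GZMA over EOMES moved from 0.57 ± 0.123 to 1.26 ± 0.134, and GZMA over NKG7 from 0.73 ± 0.152 to 1.92 ± 0.0886, the largest shift of the 10. In these pairs every knockdown library had a higher ratio than every control. PRF1 over EOMES moved from 0.08 ± 0.145 to 0.43 ± 0.0691, PRF1 over NKG7 from 0.23 ± 0.148 to 1.08 ± 0.206, and EOMES over NKG7 from 0.16 ± 0.0881 to 0.65 ± 0.222. GZMA over GZMM moved from 2.20 ± 0.250 to 2.96 ± 0.220. GZMM over NKG7 moved from -1.47 ± 0.133 to -1.04 ± 0.215. These 8 pairs each had p = 0.1 in a two-sided exact permutation test, the lowest this design allows, and 0.125 after Benjamini-Hochberg adjustment over the 10. The ratio of EOMES over GZMM overlapped, at 1.63 ± 0.131 and 1.70 ± 0.267 (exact permutation p = 0.9), as did PRF1 over GZMM, at 1.70 ± 0.264 and 2.12 ± 0.201 (exact permutation p = 0.2, adjusted 0.222).

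The wider cytotoxic pathway was described with 5 further lists of genes, in which 30 rose and 16 fell. These lists were chosen with earlier results of these data known, so their counts are a description. The number tested is given for each list below. Over all genes tested 14.3% rose, 16.6% fell and the median log2 fold change was 0.01. With the share of reads outside exons as covariate 21 genes of the lists rose and 9 fell. Over all genes this covariate took rises from 2500 to 858 and falls from 2910 to 1262. Falls in the lists also numbered 9 without shCtrl replicate 3, 9 without shSATB1 replicate 1, 10 without shSATB1 replicate 2 and 9 without shSATB1 replicate 3. Over all genes falls numbered 2071, 1817, 2225 and 1852 in these fits, so the calls became fewer well beyond the lists.

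Of 24 genes of granule content and release 21 were tested, 3 rose and 3 fell, with a median log2 fold change of 0.01, close to the shares over all genes. Rises numbered 0 with the share of reads outside exons as covariate, 5 with the length offset, 6 without shCtrl replicate 2, 1 without shCtrl replicate 3 and 1 without shSATB1 replicate 3. SRGN, the proteoglycan that packs granzymes, stood at 16.9 ± 2.27 and 19.4 ± 1.79 CPM (mean ± SD, n = 3, shCtrl and then shSATB1, as in all pairs below), and CTSC, the protease that activates progranzymes, at 136.6 ± 5.69 and 147.7 ± 3.43 CPM. Neither was called (adjusted p = 0.178 and 0.174), and both were picked after their values were seen. CALR, the chaperone calreticulin, which is also found in cytotoxic granules, fell from 1530.0 ± 99.5 to 713.0 ± 15.9 CPM (2.15-fold, adjusted p = 2.30e-07). UNC13D, which primes granules for fusion, fell from 155.5 ± 2.08 to 116.5 ± 3.25 CPM (adjusted p = 0.000161). LYST, the gene of Chediak-Higashi syndrome, a disorder of giant granules, rose from 24.6 ± 6.20 to 41.3 ± 3.10 CPM (adjusted p = 0.00111), and lost the call with the share of reads outside exons as covariate (adjusted p = 0.726). SYTL3, a Rab27 effector, rose from 0.450 ± 0.114 to 0.942 ± 0.147 CPM at low counts of 9 to 31 reads, and lost the call in 6 of the 14 alternatives that tested it (adjusted p up to 0.0916). It passed the count minimum through the knockdown libraries, where it was high, so its test is a description. The remaining calls, LAMP2 among the rises and CTSB among the falls, were named after their values were seen, and each was lost in 4 of 15 alternatives.

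Transcription factors of lymphocyte lineage and effector function showed the most rises of the 5 lists. Of 28, 25 were tested, 17 rose and 2 fell, against 14.3% and 16.6% of all genes tested. The median log2 fold change was 0.30. This list was chosen with earlier results of these data known, so its counts are a description. Falls numbered 1 without each of shCtrl replicate 3 and shSATB1 replicates 1, 2 and 3. ZNF683 (HOBIT), a factor of resident cytotoxic cells, had 5, 11 and 10 reads in shCtrl and 19, 29 and 30 reads in shSATB1, a fitted rise of 2.88-fold (adjusted p = 0.00742). It passed the count minimum mainly through the knockdown libraries, where it was high, so its test is a description. TOX2, an HMG-box factor of T and NK cells, rose 2.09-fold from 6.13 ± 0.494 to 12.8 ± 1.97 CPM, and PRDM1 (BLIMP-1), a factor of effector differentiation, 1.93-fold from 2.11 ± 0.222 to 4.07 ± 0.350 CPM (adjusted p = 5.69e-05 and 0.000830). ZBTB7B, the ThPOK gene of the CD4 lineage, which opposes the cytotoxic CD8 fate, also rose, 2.02-fold (adjusted p = 0.000211). BACH2, which restrains effector genes, rose from 49.4 ± 5.28 to 79.9 ± 2.46 CPM, so factors with opposite known roles were among the rises. BACH2 was picked after its value was seen. The falls were BHLHE40 and ETS1, and TCF7, at 697.4 ± 9.37 and 688.0 ± 18.4 CPM, was not called (adjusted p = 0.829). These 3 were also picked after their values were seen. BHLHE40 lost its call in 6 of 15 alternatives.

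Cytokines of killer cells were close to 0 in these libraries. IFNG had 1 read over all 6 libraries, CCL3 and CCL5 had 0 reads in each, and FASLG at most 5 reads in any. Of 26 genes of cytokines, chemokines and their receptors 17 were tested, 6 rose and 2 fell, against 14.3% and 16.6% of all genes tested. The median log2 fold change was 0.05. Falls numbered 4 without shCtrl replicate 1 and 4 without shCtrl replicate 2. IL2RB, the receptor chain shared by interleukin-2 and interleukin-15 and known as a target of T-box factors, rose 2.10-fold (log2 fold change 1.07, SE 0.139, adjusted p = 9.54e-05). CX3CR1, the fractalkine receptor of terminal effector cells, rose 1.99-fold from 11.5 ± 0.565 to 22.9 ± 0.992 CPM (adjusted p = 3.33e-06). STAT5A, a transducer of interleukin-2 signals, fell from 121.1 ± 4.04 to 80.6 ± 2.26 CPM (adjusted p = 1.53e-05). The other fall was TGFBR2, named after its value was seen.

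Most surface receptors of NK and CD8 T cells were not tested or not called. Of 26, 13 were tested, 2 rose and 1 fell, with a median log2 fold change of 0.13, a share of rises close to that of all genes. Rises numbered 4 without a filter, 1 with the share of reads outside exons as covariate and 4 without shCtrl replicate 1, where falls numbered 2. CD226 (DNAM-1), an activating receptor, rose 1.54-fold from 111.1 ± 6.97 to 171.0 ± 13.0 CPM (adjusted p = 3.98e-05). B3GAT1, the enzyme that makes the CD57 epitope, rose from 19.4 ± 2.70 to 27.3 ± 0.0190 CPM (adjusted p = 0.00171) and lost the call with the share of reads outside exons as covariate (adjusted p = 0.433). ADGRG1 (GPR56), an adhesion receptor that marks cytotoxic cells and inhibits them, fell 1.5-fold from 24.3 ± 1.41 to 16.2 ± 0.209 CPM (adjusted p = 0.000157). CD8A, at 4.27 ± 0.218 and 4.24 ± 0.904 CPM, was not called (adjusted p = 0.972) and is named here after its value was seen. KLRK1 (NKG2D) had at most 2 reads in any library.

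Among inhibitors and substrates of granzymes more genes fell than rose. Of 22, 18 were tested, 8 fell and 2 rose, against 16.6% and 14.3% of all genes tested. The median log2 fold change was -0.17. NME1, a nuclease activated through granzyme A, fell from 14.0 ± 3.31 to 9.22 ± 0.804 CPM (adjusted p = 0.00695), and TUBA1B, a tubulin that granzymes cleave, from 249.4 ± 17.5 to 188.5 ± 11.9 CPM (adjusted p = 0.000809). Both lost the call with the share of reads outside exons as covariate (adjusted p = 0.888 and 0.0642), with which 0 genes of this list fell by edgeR. NME1 also lost the call without shSATB1 replicate 2. Falls numbered 5 without shCtrl replicate 2 and 3 without each of shCtrl replicate 3 and shSATB1 replicates 1, 2 and 3. Those picked after their values were seen include SERPINB9, the natural inhibitor of granzyme B, at 10.1 ± 1.09 and 7.91 ± 0.972 CPM, which lost its call in 8 of 15 alternatives. GSDME, the pore protein cleaved by granzyme B and caspase-3, rose from 9.73 ± 0.257 to 13.3 ± 0.572 CPM (adjusted p = 0.00250), and MCL1, a survival protein of the BCL2 family, from 155.8 ± 2.66 to 208.0 ± 3.73 CPM (adjusted p = 0.000148).

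**Figure D3:**
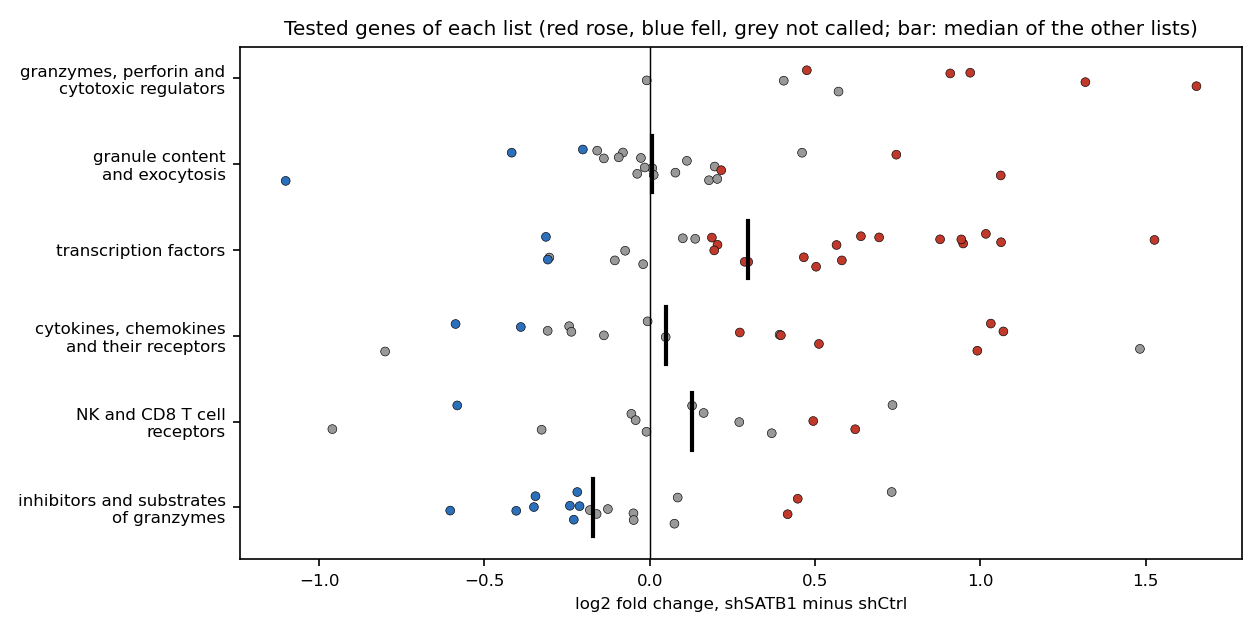
Fitted log2 fold change of shSATB1 minus shCtrl (horizontal axis) for each tested gene of the cytotoxic members and of the 5 further lists (rows); points are genes, coloured by call, and the vertical bars give the medians of the 5 lists, from -0.17 for inhibitors and substrates to 0.30 for transcription factors. Vertical scatter within a row has no meaning.

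The genes beside the members were mostly not called. Of 149 annotated genes within 200 kb of a member 64 were tested, 6 rose and 7 fell. Neither share was above that of all genes tested, of which 14.3% rose and 16.6% fell. Rises numbered 3 with the share of reads outside exons as covariate, 13 with a length offset, 10 without shCtrl replicate 1, 3 without shCtrl replicate 3, 2 without shSATB1 replicate 1 and 3 without shSATB1 replicate 3. Falls numbered 3 with that covariate, 11 without shCtrl replicate 1 and 4 without each of shCtrl replicate 3, shSATB1 replicate 1 and shSATB1 replicate 3.

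At the GZMA locus, CDC20B (chromosome 5, 55112995 to 55173175, minus strand), a relative of the mitotic activator CDC20, ends 2743 bases beyond the end of GZMA on the opposite strand. It had 7, 17 and 11 reads in shCtrl and 31, 32 and 31 reads in shSATB1, a fitted rise of 2.59-fold (95% interval 1.57 to 4.29, adjusted p = 0.00735, at most 0.0353 over the alternatives). Every knockdown library was above every control. Whether reads running on from GZMA were counted in CDC20B was not tested, since the strand setting is not given. It passed the count minimum through the knockdown libraries, where it was high, so this test is a description. Farther along, DHX29, a helicase of translation initiation, rose from 62.6 ± 0.463 to 78.5 ± 6.33 CPM (adjusted p = 0.00280) and lost the call with the share of reads outside exons as covariate (adjusted p = 0.0715). Between them, MCIDAS and CCNO, regulators of multiciliated cells, stood at 3.92 and 4.16 CPM and at 5.48 and 6.004 CPM (means of shCtrl and shSATB1) and were not called (adjusted p = 0.689 and 0.514).

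In the protease cluster on chromosome 14 the cathepsin G gene fell. CTSG (chromosome 14, 24573522 to 24576260, minus strand), the gene of cathepsin G, a granule protease of myeloid cells related to granzymes, lies 30220 bases from GZMH. It was counted at 76.0, 92.5 and 83.9 CPM in shCtrl, against 49.5, 52.9 and 51.2 CPM in shSATB1. Its knockdown libraries all lay below its controls, and it fell 1.64-fold (95% interval 1.47 to 1.84, adjusted p = 1.88e-05), with the call kept in all 15 alternatives. Of 10 genes of mast cell and neutrophil granules checked, CTSG among them, 5 were tested and 1 fell, against 16.6% of all genes tested. ELANE and AZU1 had 0 reads in each library, while CFD was tested and not called (adjusted p = 0.232). The chymase gene CMA1 of the chromosome 14 cluster stood at 0.754 ± 0.197 and 0.719 ± 0.172 CPM and was not called (adjusted p = 0.9).

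**Figure D4:**
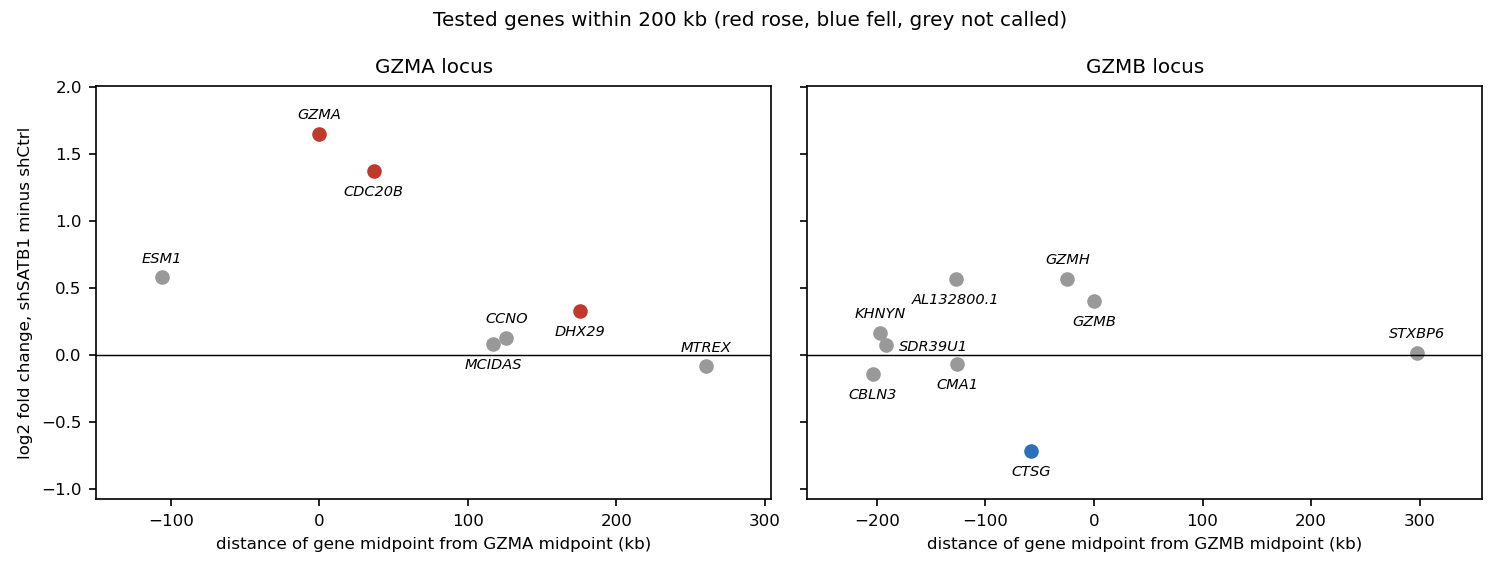
Fitted log2 fold change of shSATB1 minus shCtrl (vertical axis) of tested genes within 200 kb of GZMA (left) and of GZMB (right), placed by the distance of their midpoints from that of GZMA or GZMB in kb (horizontal axis); red rose, blue fell, grey not called. GZMA and CDC20B stand above the other genes at the left, and CTSG is the only called gene at the right.

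Near GNLY, 3 of 10 tested neighbours fell, against 16.6% of all genes tested, and none of the 3 calls held in every alternative. RNF181, a ubiquitin ligase gene, fell from 54.8 ± 4.31 to 41.3 ± 2.63 CPM (adjusted p = 0.00136) and USP39, a splicing factor gene, from 173.1 ± 10.4 to 142.9 ± 2.92 CPM (adjusted p = 0.00450), and both lost the call with the share of reads outside exons as covariate (adjusted p = 0.320 and 0.284). MAT2A, which makes S-adenosylmethionine, fell from 651.0 ± 5.59 to 559.0 ± 9.75 CPM (adjusted p = 0.0102) and lost the call in 3 of 15 alternatives. SIGLEC17P near NKG7 fell by 0.86 in log2 (adjusted p = 0.0175), RNF126 near GZMM fell by 0.21 (adjusted p = 0.0433) and NYNRIN near GZMH rose by 0.54 (adjusted p = 0.0317), and these calls were lost in 4, 8 and 7 of 15 alternatives. PALD1 near PRF1, ETFB near NKG7, and MADCAM1 near GZMM rose by at most 0.52 in log2 and each lost the call in 4 to 7 of 15 alternatives. Near EOMES the only tested gene, the pseudogene AC098614.1, was not called (adjusted p = 0.179). KPNB1, the importin beta gene near TBX21, fell from a mean of 514.0 to 432.3 CPM (adjusted p = 0.00516) and kept the call in all 15 alternatives.

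Genes whose profile over the 6 libraries was most like that of a called member were sought among 12827 genes with a mean of at least 2 CPM, by Euclidean distance of centred log2 CPM. For GZMA these were SCG2 (distance 0.244), EPAS1 (0.264) and S1PR1 (0.339). For PRF1 they were SVOPL (0.219), SLC2A3 (0.229) and RNF125 (0.291), and for EOMES DOK2 (0.165), PLXNB2 (0.188) and NRAS (0.203). RNF125, a ubiquitin ligase gene, stood at 12.8 ± 0.329 and 30.8 ± 2.23 CPM, and DOK2, an adaptor that dampens receptor signalling in lymphocytes, at 39.4 ± 0.762 and 76.4 ± 3.56 CPM. The nearest genes were MICAL1 (0.0620), SLC41A2 (0.0962) and NES (0.111) for NKG7 and SLC26A11 (0.252), SSPO (0.278) and ARSG (0.292) for GZMM. No member was among the 3 nearest of another. With 6 libraries in 2 groups such a distance mainly reflects the size of the group difference, and it is given as a description.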

How the data were processed

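RNA-seq of total RNA was measured in 6 libraries of Jurkat cells. The authors deposited raw read counts per Ensembl gene, 1 table for each library, made with Trim Galore, STAR and HTSeq on hg38, per the submitters' processing notes. Their versions, the annotation release and the strand setting are not given in the labels or processing notes. All 58735 identifiers matched GENCODE 29, which supplied symbols, coordinates and exon lengths. The 5 lines per table that name no gene were left out. These were reads outside annotated exons (7.77% to 11.7%), ambiguous reads (8.99% to 10.1%), reads without a unique alignment (4.22% to 4.53%) and 2 classes at 0.

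Groups and replicate numbers came from the sample titles. Counts of all genes were tested with edgeR 4.0.16 (R 4.3.3), using TMM, filterByExpr with a minimum count of 10, the quasi-likelihood F test without covariates and Benjamini-Hochberg adjustment over 17520 genes, with a threshold of 0.05. CPM used the TMM-adjusted library sizes. Intervals are at 95%. A count of 0 allows up to 3 reads, 0.104 to 0.113 CPM. This floor was scaled to the reads in genes without the TMM adjustment, and it covers counting error only. Profiles were compared on log2 CPM with 0.1 CPM added. DESeq2 1.42.0 and limma 3.58.1 served the alternatives, and matplotlib 3.10.9 under Python 3.11.15 the plots. The fit was also run on simulated counts in which far fewer genes changed than were called here. That run does not check the normalization under changes this broad.

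The members and gene lists were chosen with earlier results of these data known. Named were SATB1, all members, per list up to 4 called genes with the largest change (or, where fewer than 2 were called, the 2 of highest CPM), tested neighbours within 200 kb, and the 3 genes nearest in profile to each called member. A gene that this rule names is not reported here. The ratios between members, and which neighbours are described, with the genes said to be picked later, were decided after seeing values. The alternatives were limma-voom, DESeq2, its size factors within edgeR, upper quartile normalization, a minimum of 1 CPM in 3 libraries or no minimum, a block for replicate number, the share of reads outside exons as covariate, an offset by exon length, and leaving out each library. Marker lists for B cells (48.2 to 65.2 CPM summed, nearly all CD79A), mast cell and neutrophil granules (60.0 to 106.5 CPM, nearly all CTSG and CFD) and epithelial cells and fibroblasts (14.7 to 21.7 CPM, nearly all COL1A1) were also read.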

Additional observations from a re-analysis of the deposited data

How the results depend on the processing

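The calls of GZMA, PRF1, EOMES, GZMM and NKG7, and the absence of a call for TBX21, held in all 15 alternatives. GZMB and GZMH were not called in any alternative that tested them (13 and 14). The log2 fold change of SATB1 lay between -1.54 and -1.35. The sign of TBX21, which was not called in any of them, turned with upper quartile normalization (0.0032), a minimum of 1 CPM in 3 libraries (0.011), the share of reads outside exons as covariate (0.077) and the length offset (0.12), and ranged from -0.091 to 0.051 over the fits that leave out a library. The covariate did not overlap between the groups, so its fit cannot separate it from the knockdown. With it 858 genes rose and 1262 fell, against 2500 and 2910. The further lists then had 9 falls, and the neighbours 3 rises and 3 falls. With the length offset 13 neighbours rose. Leaving out a library gave 1650 to 3218 rises and 1817 to 3562 falls over all genes, 24 to 35 rises and 9 to 21 falls in the further lists, and 2 to 10 rises and 4 to 11 falls among the neighbours. The samples share only a replicate number: deviations from the group means correlated at 0.21, 0.14 and -0.02 for numbers 1, 2 and 3, and not every library correlated best with its own number. With the replicate block 5 members rose and 0 fell (edgeR, as without it), 2783 genes rose and 3120 fell, and the further lists had 31 rises and 18 falls. Depth limits GZMK, GNLY, GZMB and GZMH, each at 24 reads or fewer in any library.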
